A study of Mus musculus with 34 samples.

Results

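Among 19 blood RNA-seq libraries of mice that had received no lipopolysaccharide, 4 held a count for fewer than 16000 genes: PBS mice 5, 6 and 9 and ALY688 mouse 7. These 4 libraries were chosen by that number, which comes from the same counts as every level below, so their comparison with the other 15 is a description of levels with no test. The whole series has 34 labelled samples, and 30 of these had counts. LPS mice 3, 4 and 5 and PBS mouse 10 were not analysed here. All animals are labelled wild type and all samples blood. The groups are phosphate-buffered saline (PBS, 9 libraries), ALY688 (10), lipopolysaccharide (LPS, a bacterial cell wall component, 4) and ALY688 with LPS (7). ALY688 is an adiponectin receptor agonist, per the series title. The series text speaks of plasma for the experiment without LPS and of whole blood for the experiment with it. The sources used here give no dose, sampling time, sex or age of the animals, and each library is 1 numbered mouse.

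Mature red cells have lost their nucleus and most of their RNA. Reticulocytes, their youngest form in blood, still carry messenger RNA for globins, haem synthesis and the membrane skeleton while ubiquitin ligases and autophagy clear the remaining proteins and mitochondria. Platelets are also without a nucleus and carry RNA inherited from megakaryocytes. Leukocytes supply most other transcripts in blood. Each library's counts are shares of 1 pool, so a larger share for one source is a smaller share for the rest.

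PBS mouse 5 had 14368 detected genes, PBS mouse 6 had 14953, PBS mouse 9 had 14961 and ALY688 mouse 7 had 14630. The other 15 had between 16263 and 18246, with a median of 17686. Just inside the limit stood PBS mouse 9, and just outside it PBS mouse 7 with 16263. The 2 measures of red cell RNA, the globin share and an index of other red cell genes, separated these libraries differently. The globin share, in percent of all counts, was 64.2% in PBS mouse 5, 64.4% in PBS mouse 6, 58.1% in PBS mouse 9 and 60.8% in ALY688 mouse 7, against 42.2% to 59.3% (median 49.1%) in the other 15. These ranges overlapped: PBS mouse 4 at 59.3% and ALY688 mouse 2 at 58.6% lay above PBS mouse 9. The red cell index, the summed share of 14 red cell genes, most of them of the membrane and its skeleton, in the counts outside the globins, was 9.45% in PBS mouse 5, 9.52% in PBS mouse 6, 7.78% in PBS mouse 9 and 10.6% in ALY688 mouse 7. In the other 15 it lay between 4.16% and 6.71% (median 5.88%), so the groups did not overlap. PBS mouse 7, just outside the limit, had a globin share of 56.0% and an index of 6.38%.

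**Figure D1:**
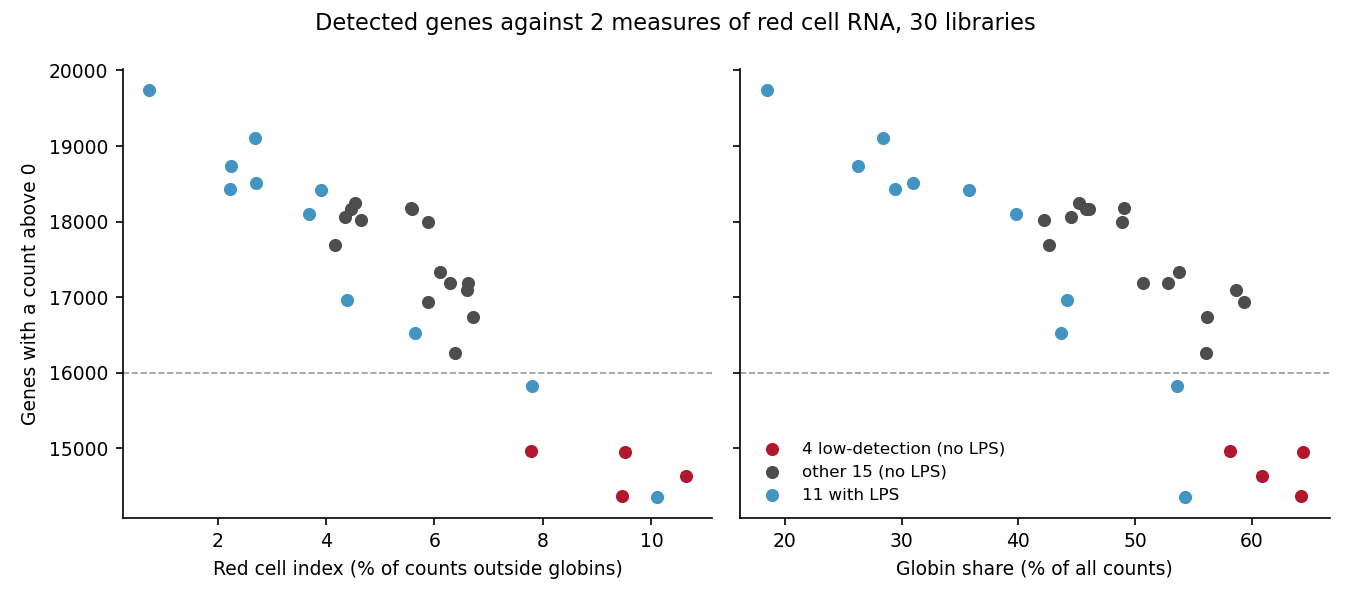
Number of genes with a count above 0 (vertical axis) against the red cell index in percent of counts outside globins (left) and the globin share in percent of all counts (right), 1 point per library, with a dashed line at 16000 genes. The 4 low-detection libraries lie at an index of 7.78% to 10.6%, to the right of the other 15, while in globin share PBS mouse 9 lies among them.

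Total depth overlapped between the groups. Totals ran from 9554964 to 10947191 counts in the 4 low-detection libraries and from 10587362 to 12514008 in the other 15. Counts outside the globins also overlapped, at 3417016 to 4583375 in the 4 and 4491505 to 7176579 in the 15. Their medians, 3869172 in the 4 and 5807099 in the 15, differed by a larger factor than those of detected genes. With every library thinned to 9554964 counts, the expected number of detected genes was 14368 to 14925 in the 4 and 16065 to 18050 in the 15. Thinned instead to 3417016 counts outside the globins, it was 14284 to 14923 against 15725 to 17184, so the groups did not overlap at equal depth either. The counts were concentrated on fewer genes: 50% of those outside the globins came from 33 to 71 genes in the 4 and from 169 to 513 in the 15. The 20 most abundant of these genes took 32.1% to 42.2% of them in the 4 and 17.9% to 26.2% in the 15. A total of 49 genes had no count in any of the 4 and at least 1 in each of the 15, and 0 genes had the reverse pattern. Treatment was not used for the choice: 3 of 9 PBS libraries and 1 of 10 ALY688 libraries were below the limit (Fisher's exact test, two-sided, p = 0.303).

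The 11 LPS-treated libraries played no part in the limit, so the relation could be tested there. Detected genes fell as the index rose (Pearson r = -0.97, permutation p = 1e-05, the smallest that 100000 permutations can give; Spearman rho = -0.93, permutation p = 0.00011). They also fell as the globin share rose (r = -0.95, permutation p = 1e-05, and rho = -0.97, adjusted permutation p = 0.00012). The 2 red cell measures rose together (r = 0.94, permutation p = 1e-05; rho = 0.95, permutation p = 5e-05). In all, 6 relations were computed, and after adjustment over them the permutation p was at most 0.00022 for these 3 r and for rho. Without ALY688+LPS mice 6 and 8, the libraries farthest from the median, r was -0.92, -0.93 and 0.95. In the other 15 libraries without LPS the number of detected genes had been used to keep them, so the same relations are a description with no test: r was -0.73 with the index and -0.82 with the globin share, and 0.84 between the 2 red cell measures. Among the LPS-treated libraries, 2 also lay below 16000 genes: ALY688+LPS mouse 8 had 14351 and an index of 10.1%, and ALY688+LPS mouse 6 had 15830 and an index of 7.79%. LPS mouse 6 stood at the other end with 19746 genes and an index of 0.746%. The relations with detected genes were not adjusted for depth, which differed too: 17338214 counts in LPS mouse 6 and 10087871 in ALY688+LPS mouse 8. Thinned to 3417016 counts outside the globins, LPS mouse 6 had 16775 expected genes and LPS mouse 2 (index 2.70%) 16939. ALY688+LPS mice 6 and 8 then had 15036 and 13912. The relation at equal depth was not tested.

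Levels are given as CPM, a count divided by the library's scaled size, with TMM factors that set libraries to a common level over most genes. For each gene the difference is the mean log2 level of the 4 minus that of the 15, given relative to the median over all 9586 genes kept. This reference matters because the median was -0.15 with TMM and -1.67 with library totals alone. A median relative to all genes is hardly moved by a scaling common to all genes, so its value with library totals is no separate evidence, and for most lists the counts of genes without overlap are given with library totals too. With TMM, all 4 libraries lay above all 15 for 1583 genes, 16.5% of those kept, and below all 15 for 617 genes, 6.44%. With library totals alone the counts were 14 and 6534. Within PBS alone 1791 and 1439 genes lay above and below, and without ALY688 mouse 7 the counts were 1881 and 982. The filter on low counts required a gene to be measured in nearly all of the 19 libraries, so genes lost from the 4 are not among the 9586.

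The genes of the red cell index, which rest on the same counts as the choice of libraries, show the size of the difference. Alas2 encodes the first enzyme of haem synthesis in red cells. It stood at 82150 CPM in PBS mouse 5, 67233 in PBS mouse 6, 69628 in PBS mouse 9 and 108243 in ALY688 mouse 7, against 13815 to 30246 (median 20895) in the 15. Slc4a1 encodes band 3, the anion exchanger of the red cell membrane, and had 1400, 851, 1069 and 3610 CPM in the same order, against 171 to 587. For both genes the groups did not overlap, and ALY688 mouse 7 was the highest library. The skeleton genes Sptb (beta spectrin) and Ank1 (ankyrin) were 4.78-fold and 5.00-fold higher in mean CPM. The blood group genes Kel, Rhd, Rhag, Ermap and Xk were 4.60-fold, 5.25-fold, 5.05-fold, 5.12-fold and 2.65-fold higher. Epb42 (protein 4.2), Hemgn (a nuclear protein of erythroid cells) and Trim10 (a protein of red cell differentiation) were 3.81-fold, 3.76-fold and 5.02-fold higher. All 14 index genes lay above all 15 libraries, with a median relative log2 difference of 2.28. With library totals 1 of 14 lay above all 15, and the median was 2.22 relative to all genes and 0.55 before the median of all genes was subtracted.

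GATA1, the master transcription factor of red cells and megakaryocytes, binds a short GATA motif, so the promoters of the index genes were searched for the letters AGATAA and TGATAA on both strands (TTATCT and TTATCA on the opposite strand). RefSeq promoter sequences on GRCm38.p6, 250 bases before the start site, were matched for 10 of the 14 index genes, and 8 of these 10 promoters held the letters (80%), against 16.6% of all 32851 promoters. The stretches of 60 bases that hold them are shown 5′ to 3′ on the gene's strand, with the GATA letters in capitals, because they are the sequence that these genes share. Kel held 2 such sites, of which the farther one is shown.
Alas2 (chrX:150547304-150547363, plus strand): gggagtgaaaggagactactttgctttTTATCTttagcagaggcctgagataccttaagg
Epb42 (chr2:121037068-121037127, minus strand): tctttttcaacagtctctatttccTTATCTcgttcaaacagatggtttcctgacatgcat
Hemgn (chr4:46404184-46404243, minus strand): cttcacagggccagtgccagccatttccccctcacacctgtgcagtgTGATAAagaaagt
Ermap (chr4:119190030-119190089, minus strand): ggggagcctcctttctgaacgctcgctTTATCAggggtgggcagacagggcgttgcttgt
Rhd (chr4:134864466-134864525, plus strand): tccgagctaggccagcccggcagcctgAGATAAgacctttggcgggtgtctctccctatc
Kel (chr6:41704349-41704408, minus strand): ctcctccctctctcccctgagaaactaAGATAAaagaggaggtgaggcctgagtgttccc
Trim10 (chr17:36869384-36869443, plus strand): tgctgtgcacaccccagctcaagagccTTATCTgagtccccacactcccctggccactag
Rhag (chr17:40811089-40811148, plus strand): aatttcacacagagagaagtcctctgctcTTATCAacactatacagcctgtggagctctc

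The sites lay between 13 bases (Hemgn) and 226 bases (Epb42) before the start site. Sptb and Xk were matched and did not hold these letters in the window. Among the platelet markers, 4 of 18 promoters held them (22.2%). The CACCC letters, CCNCNCCC on both strands, which include CCACACCC, were in 40% of the index promoters and 45.9% of all promoters. A match describes the letters only. Since the index genes were taken from textbook knowledge of red cells, their shared motif describes the list and not these libraries.

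The globins themselves did not separate the groups when taken as a share of counts. Hba-a1, an alpha chain, took 39.2% to 44.1% of all counts in the 4 and 28.8% to 41.1% in the 15. Hbb-bs, the main adult beta chain, took 7.25% to 9.84% against 5.69% to 8.34%, and Hbb-bt, its near-identical partner, took 6.37% to 6.47% against 3.32% to 10.5%. All of these ranges overlapped, and how reads shared by near-identical globin genes were counted is not given. On the TMM scale all 6 globin genes kept (of 10 matched) lay above all 15, with a median relative log2 difference of 2.08, and with library totals 0 of the 6 did. The embryonic chain Hbb-y was low, at 9.24, 3.78, 10.7 and 3.82 CPM in PBS mice 5, 6 and 9 and ALY688 mouse 7, against 0.177 to 2.45 in the 15, and did not pass the filter.

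Other red cell genes, which are not in the index, followed. Of 15 kept genes of the red cell surface and its metabolism, 11 lay above all 15 libraries and 0 below, with a median relative log2 difference of 2.06 (2.00 with library totals, where 0 lay above and 4 below). With library totals 14 of all 9586 genes lay above and 6534 below. Aqp1, the water channel, stood at 196, 142, 262 and 192 CPM in PBS mice 5, 6 and 9 and ALY688 mouse 7, against 9.13 to 84.5. Cd59a, which protects cells from complement, stood at 142, 79.1, 164 and 175 CPM against 9.93 to 52.4. Neither gene overlapped between the groups, and in Aqp1 the highest library was PBS mouse 9 and not ALY688 mouse 7. Add2 (beta adducin) and Tmod1 (tropomodulin), which cap and link the actin of the membrane skeleton, were 4.80-fold and 4.37-fold higher. Of 11 haem synthesis genes, 8 lay above all 15, with a median of 1.07 (1.03 with library totals, where 0 lay above and 1 below). Among them were Urod, an enzyme of the middle steps, at 4.62-fold, and Tspo2 and the mitochondrial Fam210b at 4.73-fold and 4.53-fold.

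Genes of reticulocyte maturation formed the longest red cell list. Of 33 genes for ubiquitination, autophagy and survival, 26 lay above all 15 and 0 below, with a median of 1.85 (1.79 with library totals, where 2 lay above and 5 below). Ube2l6, an E2 enzyme that conjugates ISG15 and ubiquitin, stood at 25932 CPM in PBS mouse 5, 20695 in PBS mouse 6, 21116 in PBS mouse 9 and 30695 in ALY688 mouse 7, against 3854 to 9844 (median 6303). Bcl2l1, which encodes the survival protein BCL-XL, stood at 562, 355, 703 and 1092 CPM against 61.2 to 219. Both genes were higher in each of the 4 than in any of the 15. Rnf10, a RING finger ligase, and Ube2c, an E2 enzyme also used in mitosis, were 4.15-fold and 4.32-fold higher. Among iron genes 5 of 14 lay above all 15, with the ferritin chains Ftl1 and Fth1 at 3.99-fold and 3.42-fold and the mitochondrial iron importer Slc25a37 at 3.79-fold. Among antioxidant genes 12 of 20 did, with the biliverdin reductase Blvrb at 4.94-fold, the glutathione peroxidase Gpx4 at 4.24-fold and the peroxiredoxin Prdx2 at 4.22-fold. The factors of the lineage were divided: 7 of 16 lay above all 15, among them Gata1 (3.75-fold), Tal1 (3.51-fold), Gfi1b (4.11-fold) and Nfe2 (3.41-fold), and 2 lay below. With library totals 1 iron gene, 0 antioxidant genes and 0 lineage factors lay above all 15, and 8, 5 and 8 below. Of all 9586 genes, 14 lay above and 6534 below on that scale, and 16.5% and 6.44% did on the TMM scale.

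Platelet genes differed by about as much as red cell genes. Of 23 kept markers of platelets and megakaryocytes, 22 lay above all 15 and 0 below, with a median relative log2 difference of 2.20 beside 2.28 for the index. With library totals 0 of 23 lay above all 15, and the median was 2.14 relative to all genes and 0.47 before subtraction, or -0.17 within ALY688. Gp9, a chain of the von Willebrand factor receptor, stood at 1768 CPM in PBS mouse 5, 790 in PBS mouse 6, 1811 in PBS mouse 9 and 937 in ALY688 mouse 7, against 40.2 to 527 (median 278). Ppbp, a chemokine of platelet granules, stood at 5778, 3301, 8819 and 3637 CPM against 184 to 2809. The groups did not overlap in either gene, and here PBS mouse 9 was highest, the library with the lowest red cell index of the 4. Treml1, a platelet activation receptor, and Nrgn (neurogranin) were 4.80-fold and 4.09-fold higher, and so was F13a1, the coagulation factor XIII chain shared by platelets and monocytes, at 4.29-fold with overlap between the groups. As a share of counts outside the globins, platelet markers took 4.50% in PBS mouse 5, 3.57% in PBS mouse 6, 5.95% in PBS mouse 9 and 2.34% in ALY688 mouse 7, against 0.447% (ALY688 mouse 1) to 3.58% (PBS mouse 7) in the 15. That share overlapped, since ALY688 mouse 7 lay below the median of 2.48% of the 15. The label of the libraries as rich in red cell RNA holds by the index, taken as a share of counts outside the globins. It depends on that denominator: the globin share of all counts overlapped, and with library totals 1 of 14 index genes lay above all 15. The platelet share lay above all 15 in PBS mice 5 and 9, just under the highest of the 15 in PBS mouse 6, and below their median in ALY688 mouse 7. Its order among the 4 was not that of the index. The part of platelet RNA in the lower number of detected genes was not tested.

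**Figure D2:**
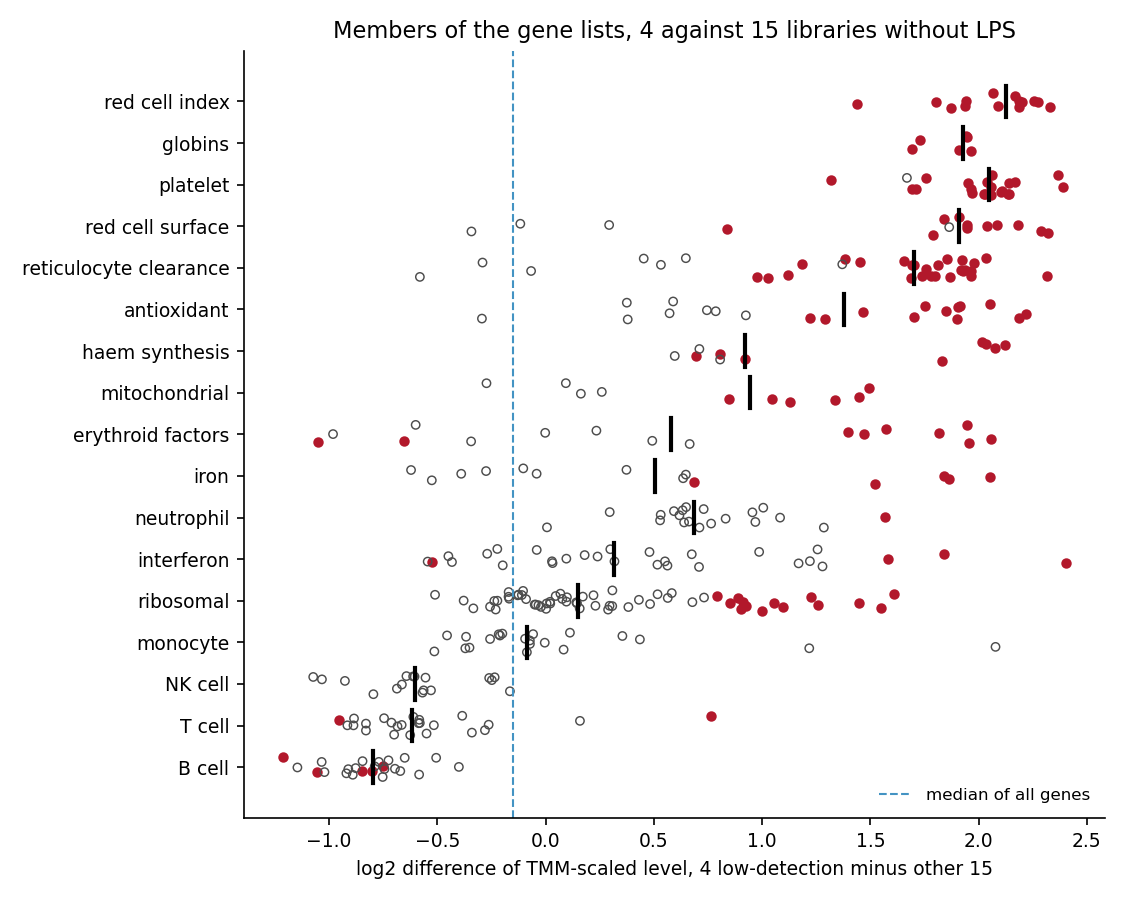
Each point is 1 gene of a list, placed by its log2 difference of TMM-scaled level between the 4 low-detection libraries and the other 15; filled points mark genes whose groups do not overlap, black bars list medians and the dashed line the median of all genes at -0.15. Platelet genes lie as far to the right as red cell genes, and the medians of B, T and NK cell genes lie left of the dashed line.

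The 4 libraries were not alike. In each, the median difference from the mean of the 15 was taken over the list, on the TMM scale and without subtracting the median of all genes, which was -0.12 to -0.06 in the 4. For the index it was 2.05 in PBS mouse 5, 1.51 in PBS mouse 6, 1.78 in PBS mouse 9 and 3.00 in ALY688 mouse 7. For platelet markers it was 2.16, 1.60, 2.72 and 1.62 in the same order. By these medians ALY688 mouse 7 was thus highest for red cell genes and PBS mouse 9 for platelet genes, and PBS mouse 6 was lowest of the 4 for the index and platelet lists. The order depends on the scale. As a share of counts outside the globins, the index was lowest in PBS mouse 9 (7.78%) and platelet markers in ALY688 mouse 7 (2.34%). The globin median differed less, between 1.65 (PBS mouse 9) and 2.09 (ALY688 mouse 7). ALY688 mouse 7 also had the highest level of Ctsf (a lysosomal cathepsin) at 112 CPM against 15.7 to 33.0 in the 3 PBS libraries. Within PBS alone, 3 libraries against 6, the median difference was 1.65 for the index and 1.98 for platelet markers. Within ALY688, 1 library against 9, it was 3.09 and 1.75. PBS mouse 9 further had the highest neutrophil median (1.44, against 0.42 to 0.62 in the other 3) and the lowest T cell median (-1.58, against -0.39 to -0.18).

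**Figure D3:**
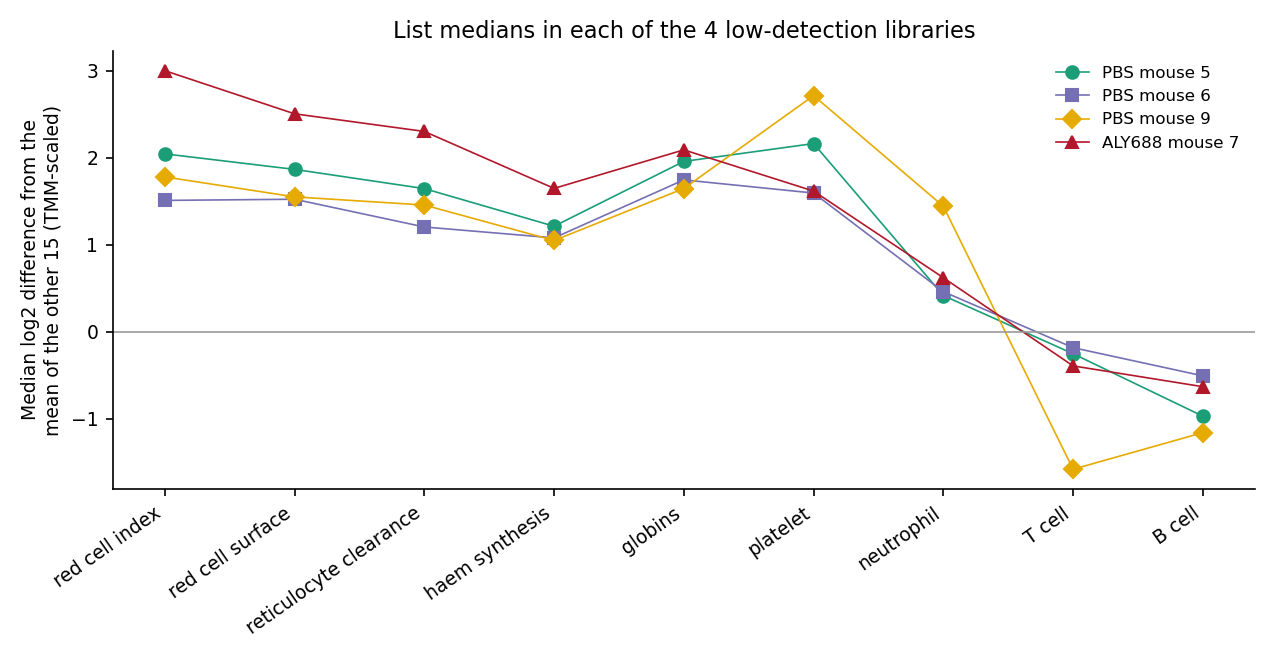
Median log2 difference from the mean of the other 15 libraries (vertical axis, TMM scale) for 9 gene lists (horizontal axis) in each of the 4 low-detection libraries; the lines only join the points of a library. ALY688 mouse 7 is highest for red cell lists (3.00 for the index) and PBS mouse 9 for platelet genes (2.72).

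Lymphocyte genes were lower in the 4 libraries. B cell markers took 0.184%, 0.304%, 0.151% and 0.180% of the counts outside the globins in PBS mice 5, 6 and 9 and ALY688 mouse 7, against 0.440% to 1.28% in the 15, a 3.95-fold lower mean. T cell markers took 0.0802%, 0.0975%, 0.0398% and 0.0605% against 0.122% to 0.329%, 3.04-fold lower. NK cell markers took 0.0207% to 0.0332% against 0.0431% to 0.143%, 3.41-fold lower. The groups did not overlap in any of these shares, and PBS mouse 7, just outside the limit of detected genes, had the lowest of the 15 in each. In bulk RNA, fewer cells of a type and less RNA per cell cannot be told apart. On the TMM scale the lists were lower by less. The median relative log2 difference was -0.65 for B cells, -0.47 for T cells and -0.46 for NK cells, and 5 of 24, 1 of 24 and 0 of 17 kept markers lay below all 15, beside 6.44% of all genes. A single T cell list member, Lat, an adaptor of T cell receptor signalling that platelets also carry, lay above all 15 (mean 80.8 against 47.8 CPM; named after its values were seen). With library totals 24, 22 and 16 of the B, T and NK cell markers lay below all 15, beside 6534 of all 9586 genes. The T cell median was -0.21 without PBS mouse 9, and the NK cell median -0.25 without PBS mouse 5. Ms4a1 (CD20) stood at 49.9, 74.7, 52.9 and 64.0 CPM in PBS mice 5, 6 and 9 and ALY688 mouse 7, against 80.8 to 176, without overlap. Ebf1, a factor that sets B cell identity, stood at 7.92, 13.8, 9.32 and 10.2 CPM against 16.2 to 33.2, also without overlap.

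Myeloid genes did not follow the lymphocytes on the TMM scale. The median relative log2 difference was 0.84 for neutrophil markers (0.81 with library totals, where 0 lay above and 2 below), with 20 of 20 kept genes higher in mean but only Clec4d above all 15, and 0.06 for monocyte markers (0.01). As a share of counts outside the globins, neutrophil markers took 0.160% to 0.314% in the 4 and 0.222% to 0.473% in the 15, with overlap. The 2 scales thus place the neutrophil list on opposite sides, and its direction depends on the reference. Interferon-stimulated genes had a median of 0.47, with 3 of 29 above all 15, a smaller share than the 16.5% of all genes: Isg15, Rsad2 and Irf7. Isg15, the ubiquitin-like protein that Ube2l6 conjugates, stood at 1016, 514, 998 and 888 CPM in PBS mice 5, 6 and 9 and ALY688 mouse 7, against 83.9 to 368. Ribosomal protein genes had a median of 0.30, with 14 of 60 above all 15, and mitochondrially encoded transcripts 1.10, with 6 of 10. The ribosomal median was -0.46 in PBS mouse 9 alone, before subtracting the median of all genes, and without that library 28 of 60 lay above all 15, with a relative median of 0.50. As a share of counts outside the globins the ribosomal list in the 4 stood at 0.666 times its mean in the 15, with overlap, so its direction also depends on the reference. With library totals 0 ribosomal genes lay above and 45 below all 15, and 0 and 5 of the mitochondrial transcripts. On that scale 14 of all 9586 genes lay above and 6534 below. Markers of endothelium, muscle, fat, liver and skin together took at most 0.00135% of counts outside the globins in the 4 and at most 0.00215% in the 15.

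**Figure D4:**
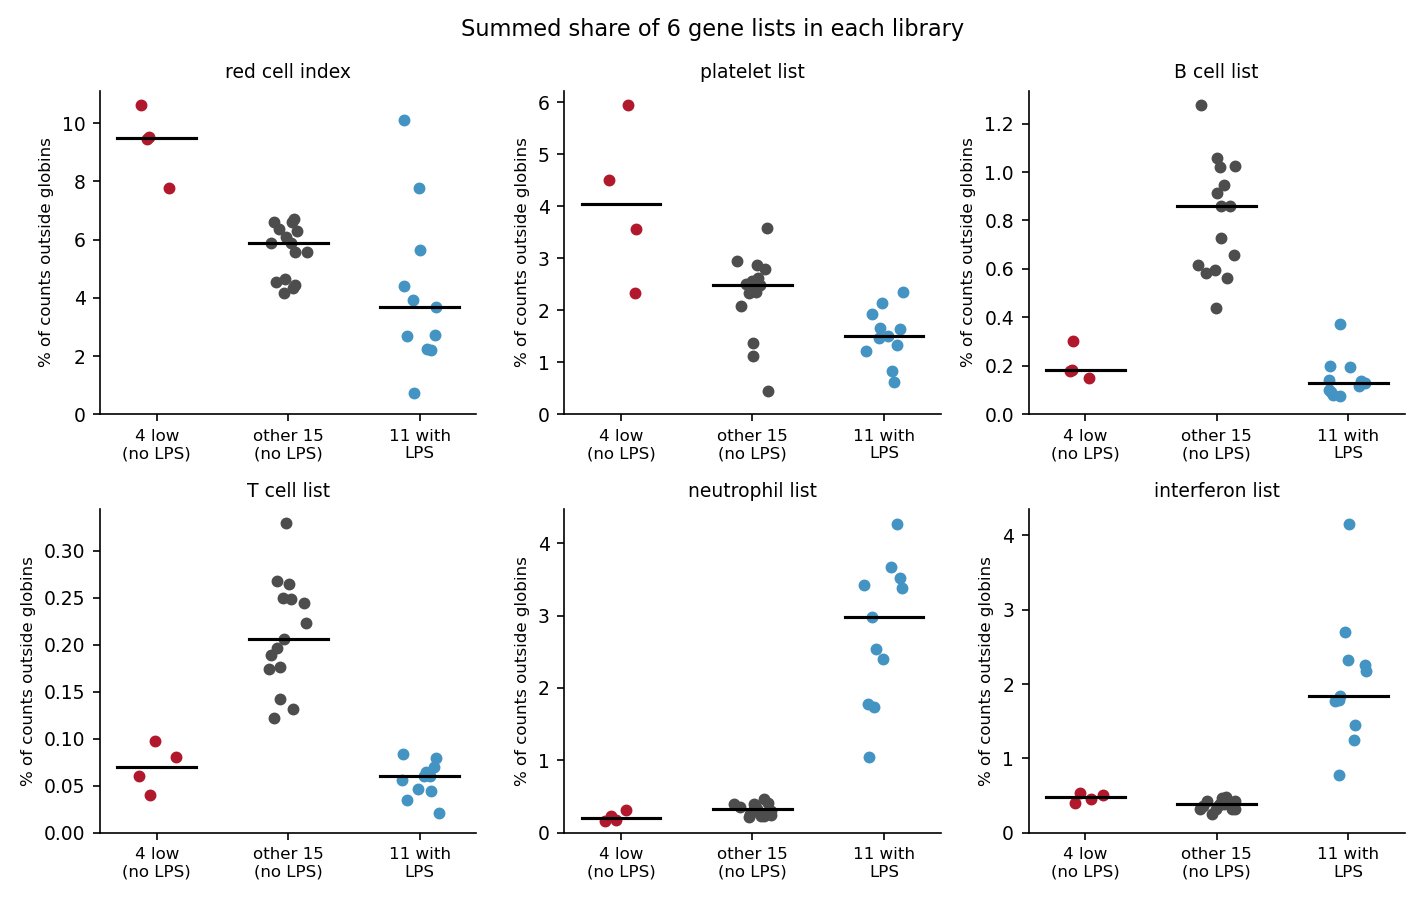
Share of 6 gene lists in the counts outside globins (vertical axes, percent), 1 point per library, with bars at group medians, for the 4 low-detection libraries, the other 15 without LPS and the 11 with LPS. B and T cell shares of the 4 lie below all 15, the index lies above, and the platelet, neutrophil and interferon shares overlap.

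Both adiponectin receptors were measured, and they differed. Adipor1 lies on chromosome 1 (134415378 to 134433351, plus strand, GRCm38) and stood at 3373 CPM in PBS mouse 5, 2988 in PBS mouse 6, 2798 in PBS mouse 9 and 6270 in ALY688 mouse 7. In the 15 it stood at 666 to 1457 (median 1032), so the groups did not overlap and the mean was 3.75-fold higher. Adipor2 stood at 25.9, 23.5, 31.6 and 28.5 CPM against 27.4 to 36.0, with overlap, and its relative log2 difference was 0.00 beside 2.01 for Adipor1. With library totals 0 of the 5 kept genes of the adiponectin list lay above all 15, and the largest difference, that of Adipor1, was 0.28 on the log2 scale before subtraction. The adaptors Appl1 and Appl2, which bind the receptors inside the cell, were lower than in all 15, at 6.29 to 10.9 CPM against 11.5 to 18.9 and at 1.47 to 6.37 against 6.56 to 12.1. On the TMM scale the level of Adipor1 thus differed between libraries of the same treatment label.

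Outside the lists, the largest differences among genes of at least 10 CPM without overlap between the groups included Hacd1 (an enzyme of long-chain fatty acid synthesis), at 19.8, 6.50, 17.0 and 7.14 CPM in PBS mice 5, 6 and 9 and ALY688 mouse 7 against 0.162 to 3.28. Next came the histone gene Hist1h4n (5.22-fold), the platelet surface protein Ly6g6f (5.57-fold) and its neighbour in the same gene family Ly6g6c (5.04-fold). Cox6b2, a subunit of cytochrome c oxidase, was 5.56-fold higher and Gchfr, which regulates biopterin synthesis, 4.72-fold. Plvap, a protein of endothelial openings, and Scamp5, a vesicle protein, were 5.38-fold and 5.13-fold higher. At the other end stood Unk, at 5.10 to 5.87 against 10.9 to 17.6. Abca1, the cholesterol exporter, was 2.37-fold lower, Impdh2, an enzyme of guanine nucleotide synthesis, 2.29-fold, and the DNA repair gene Ercc6 2.22-fold. Nemp2, Uspl1, Rsl1d1 and Ccdc93 were 2.18-fold to 2.43-fold lower. The genes above all 15 were short: their median exon length was 3542 bases, against 4571 over all genes kept and 6744 for those below all 15. Of the shortest 20% of genes, 27.1% lay above and 1.20% below all 15; of the longest 20%, 11.7% and 12.5% did.

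Whether these genes also vary with the index in other mice was examined in 2 sets of libraries. The 11 with LPS played no part in the limit. The other 15 without LPS had been kept by their number of detected genes, so their p-values are given as a description. The slope is the change in log2 level per doubling of the index, with the treatment as a term, and the globins and index genes were left out of the calls. Across the other 15 libraries without LPS, where the index ranged only from 4.16% to 6.71%, 0 of 12830 genes rose and 0 fell at an edgeR adjusted p under 0.05 (0% in each direction). At an unadjusted p under 0.05 there were 540 rising and 339 falling genes, and DESeq2 called 119 rising and 2 falling. Without ALY688 mouse 1 edgeR called 66 rising and 0 falling genes. Among genes of at least 1 CPM, predicted genes and pseudogenes left aside, the smallest p-values belonged to Slc25a39, a mitochondrial carrier needed for haem synthesis (slope 1.34, edgeR adjusted p = 0.055), the cathepsin Ctse (1.42, edgeR adjusted p = 0.055), Selenbp1 (1.63, edgeR adjusted p = 0.055) and the cathepsin Ctsb (1.53, edgeR adjusted p = 0.0557). The scavenger receptor Cd36, the glyoxalase Hagh, the haem transporter Slc48a1 and Fam220a followed with slopes of 1.30 to 1.45. All 8 also lay above all 15 in the 4 low-detection libraries. Of the genes with negative slopes chosen the same way, Nop14 and Cd83 had the smallest p-values, with slopes of -1.08 and -0.86 and edgeR adjusted p of 0.15 and 0.183. Platelet markers had positive slopes in 23 of 23 cases with a median of 0.56, and B cell markers negative slopes in 24 of 24 with a median of -0.66, beside a median over all genes near 0, and none of them passed.

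The 11 libraries with LPS, 4 of LPS alone and 7 with ALY688, spanned an index of 0.746% to 10.1% and gave many calls. Of 13510 genes tested, 1522 rose with the index (11.3%) and 517 fell (3.83%) at an edgeR adjusted p under 0.05. Without ALY688+LPS mice 6 and 8, the libraries below 16000 genes, 822 rose and 70 fell. The falling count was also moved by single libraries, to 1148 without LPS mouse 2, to 101 without LPS mouse 7, and to 308, 326, 318 and 249 without ALY688+LPS mouse 1, 6, 7 or 8. The smallest p-values among rising genes belonged to Slc38a5, an amino acid transporter, with 2.16 to 97.0 CPM across the 11 and the highest level in ALY688+LPS mouse 8 (slope 1.49 ± 0.09 SE, edgeR adjusted p = 1.62e-06). Next were Ppp1r15a, which reverses the block of translation under stress (slope 1.15 ± 0.08 SE, edgeR adjusted p = 3.25e-06), and Dmtn, the actin-bundling dematin of the red cell skeleton (1.46 ± 0.11 SE, edgeR adjusted p = 3.25e-06). Syngr1, Tspan33, Mpp2, the proteasome inhibitor Psmf1 and the reticulocyte ubiquitin ligase Trim58 rose with slopes of 1.24 to 1.58. All but Dmtn lay above all 15 in the low-detection libraries. Among the falling genes with the smallest p-values, slopes were shallower: Plbd2 (-0.45), Snrpe (-0.74), the retinoid receptor Rxra (-0.43), Atp8b2 (-0.34), Slc12a4 (-0.60), the chemerin receptor Cmklr1 (-0.52) and Tifab (-0.37). For each of these 7, LPS mouse 6, the library with the lowest index, held the highest level, and none of them lay below all 15 in the low-detection libraries.

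By list, 15 of 18 red cell surface and metabolism genes rose (median slope 1.44), 29 of 33 reticulocyte maturation genes (1.09), 8 of 11 haem synthesis genes (0.66) and 20 of 23 platelet markers (0.84), against 11.3% of all genes and a median of -0.03. With library totals in place of TMM the median of all genes was lower by the same kind of shift as above: the median slope of platelet markers dropped to 0.16 with 1 rising and 1 falling, and that of red cell surface genes to 0.68 with 11 rising and 3 falling. Alas2 itself was in the index; Ube2l6 rose at 1.46, Rnf10 at 1.43, Gp9 at 0.91, Nrgn at 0.94 and Gata1 at 0.91 (edgeR adjusted p at most 0.00132). Adipor1 rose with a slope of 1.22 ± 0.14 SE (edgeR adjusted p = 4.25e-05), from 297 to 7047 CPM across the 11, with the highest level in ALY688+LPS mouse 8. Adipor2 had a slope of 0.07 ± 0.08 SE (edgeR adjusted p = 0.611), at 61.0 to 98.6 CPM. CPM of the LPS-treated libraries were scaled apart from those of the other 19, so levels are not compared between the sets.

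**Figure D5:**
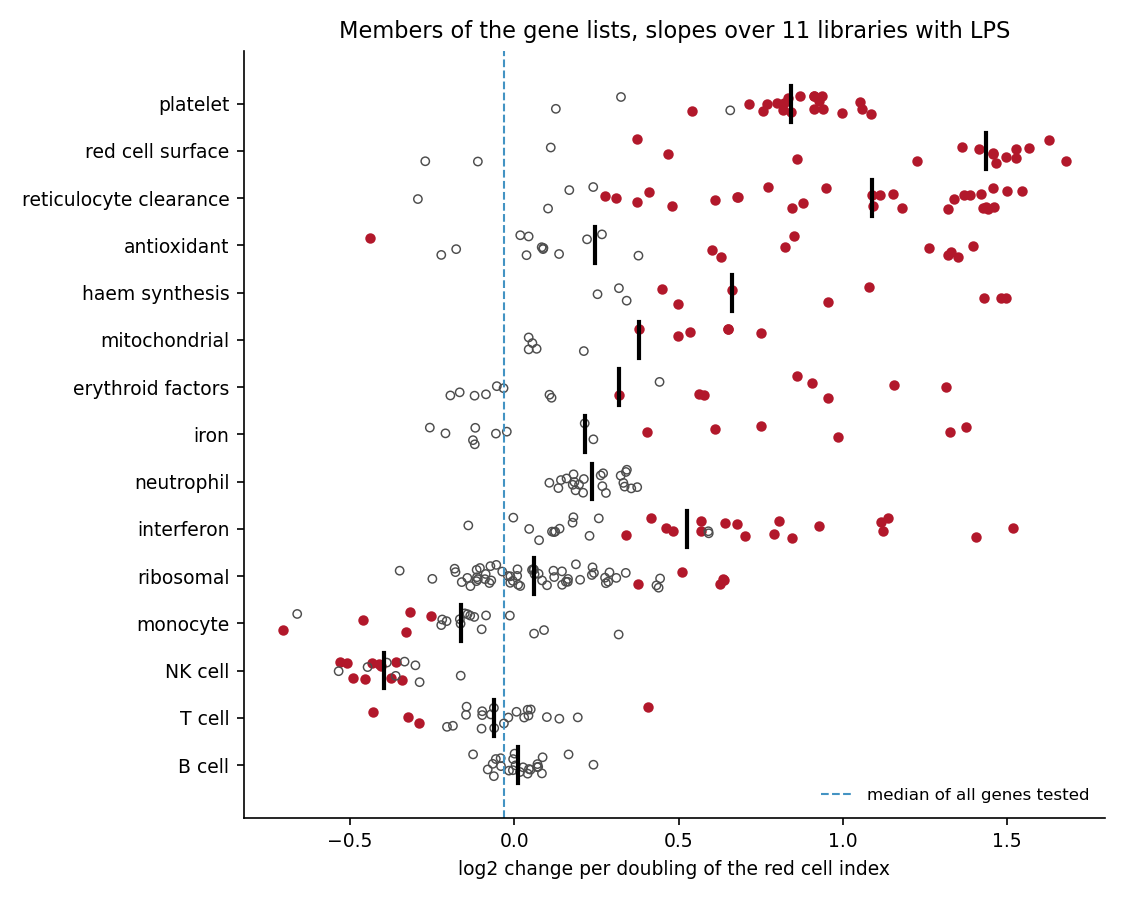
Each point is 1 gene of a list, placed by its slope across the 11 LPS-treated libraries in log2 change per doubling of the red cell index; filled points have an edgeR adjusted p under 0.05, black bars are list medians and the dashed line is the median of all genes tested. Red cell surface genes (median 1.44) and platelet genes (0.84) lie to the right, and NK cell genes (-0.40) to the left.

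Of 32 interferon-stimulated genes, 18 rose with the index and 0 fell in the LPS-treated libraries, with a median slope of 0.52. Over all genes tested, 11.3% rose and 3.83% fell. Rsad2 (viperin, an antiviral enzyme) rose at 1.52 ± 0.14 SE (edgeR adjusted p = 1.06e-05) and Isg15 at 1.41 ± 0.14 SE (edgeR adjusted p = 1.81e-05), from 388 CPM to 12071 CPM in ALY688+LPS mouse 6. Irf7, a factor that drives the interferon response, and Ifit1 both rose at 1.12. NK cell markers fell in 10 of 18 cases, with a median of -0.40, and monocyte markers in 5 of 21, with a median of -0.16. These counts are on the TMM scale, and with library totals 10319 of all 13510 genes fell. None of 24 B cell and 22 neutrophil markers passed, with medians of 0.01 and 0.24. In the 15 libraries without LPS the NK cell and monocyte medians were 0.70 and 0.84, of the opposite sign. The difference of slopes between the 2 sets was fitted by an interaction term over 14141 genes, and 1 gene passed (0.00707%), which belonged to neither list. That comparison includes the 15 libraries kept by the limit, so it too is a description.

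The sets overlapped more among rising than among falling genes. Of 1366 genes that rose with the index under LPS and were kept in the comparison of 4 with 15, 1029 lay above all 15 (75.3% of the rising genes and 65.9% of those above all 15 that were tested), beside 16.3% of all 9563 genes in both. Of 427 genes that fell, 48 lay below all 15 (11.2% of the falling genes and 7.78% of those below), beside 6.45% of all. In the 15 libraries without LPS, 1329 of 1481 genes that rose under LPS had positive slopes (89.7%), and 279 of 505 that fell had negative ones (55.2%), beside 48.0% positive and 52.0% negative slopes over all 12428 genes tested in both. The rising genes under LPS had a median exon length of 3695 bases and the falling ones 4639, against 4083 over all genes tested. GATA letters were in 11.4% of the promoters of rising genes, 8.37% of those of falling genes and 9.99% of those of all genes tested.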

How the data were processed

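Poly-A RNA of mouse blood was sequenced, 1 library per mouse. The authors deposited raw read counts per gene as whole numbers. Alignment used HISAT2 2.0.5 and counting featureCounts 1.5.0-p3, as the submitters' processing notes list. The sources used here do not give the build, annotation release or strand setting, so reads of overlapping or antisense genes may be mixed. Of 54532 gene IDs, 54495 matched GENCODE M21 (GRCm38). The globins are 10 matched genes and the index 14.

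Levels were scaled with TMM in edgeR 4.0.16 (R 4.3.3) after filterByExpr, and differences use log2 CPM with a prior count of 2. On this scale 3 counts, taken as the floor of detection, stood at 0.157 to 0.792 CPM in the 19 libraries without LPS. Reads carry no molecular identifiers, so floors cover counting error only. Slopes come from edgeR's quasi-likelihood F-test (robust, two-sided) with Benjamini-Hochberg adjustment, and DESeq2 1.42.0 was an alternative. Correlations used 100000 permutations, two-sided, in SciPy 1.17.1. The slope script was tested on simulated data. Genes named are the 10 largest and 10 smallest differences without overlap at 10 CPM or more, the 8 rising and 8 falling genes of each fit at 1 CPM or more, up to 4 members of each list with the largest difference, the adiponectin receptors, globins and index genes; some of these are not reported here. The libraries, lists and tests were chosen with earlier results of these data known. Other alternatives are given in the closing section.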

Additional observations from a re-analysis of the deposited data

Results flagged for a closer look

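A search of 50 sets of values, each 1 measure in 1 group, for a library far from the rest of its group returned 4. The sets were not independent, since the 4 low-detection libraries were also searched as a group of their own. For a single set, chance gives about 1 in 20. That rate cannot be set against the values of ALY688 mouse 7. The library was chosen by its number of detected genes, with which the index goes. ALY688 mouse 7 stood apart from the other 9 ALY688 libraries with 14630 detected genes and an index of 10.6%. ALY688+LPS mouse 4 had the highest B cell share of its group, at 0.374% of counts outside the globins, and ALY688+LPS mouse 6 the highest share of interferon-stimulated genes, at 4.16%. The slope of Rnf217, a RING finger ubiquitin ligase gene, on the red cell index differed between libraries with and without LPS by -3.83 (edgeR interaction term, adjusted p = 0.0463): it was -0.15 across the 11 with LPS and 3.60 across the 15 without (edgeR adjusted p = 0.593 and 0.055). With library totals in place of TMM, 0 genes passed that test, with 348 at an unadjusted p under 0.05 beside 606 with TMM.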

How the results depend on the processing

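With library totals in place of TMM, 14 genes lay above and 6534 below all 15, 5 rose and 5231 fell with the index across the 15 libraries without LPS, and 271 rose and 10319 fell across the 11 with LPS; the slope of Adipor2 under LPS then turned to -0.64 from 0.07. Within PBS alone 1439 genes lay below. Leaving out each of the 4 libraries gave 1682 to 1881 genes above and 724 to 982 below. Across the 15 libraries, where 0 genes passed, 69 rose without a filter on low counts, 74 rose and 1 fell without the treatment term, and DESeq2 called 119 and 2; leaving out 1 library gave 0 to 66 rising genes and 0 to 0 falling. Under LPS, 973 fell without the treatment term, 822 rose and 70 fell without ALY688+LPS mice 6 and 8 (chosen after seeing the data, as were the interaction and a filter on a mean of 10 counts), and leaving out 1 library gave 1059 to 1576 rising and 101 to 1148 falling. The cause of these shifts was not tested.

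With the mouse number as a replicate block, 0 genes rose and 0 fell across the 15 libraries, and 1122 rose and 263 fell across the 11. Equal numbers name different animals and do not pair them: 0 of 5 and 0 of 3 same-numbered pairs correlated best with each other, with r of -0.36 to -0.06 and -0.51 to 0.13. The other alternatives of these counts stayed within 1.5 times. Depth limits genes near 3 counts, most in the 4 low-detection libraries.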

Other observations

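Cell cycle genes differed among themselves in how they went with the red cell index. Nusap1, a protein of the mitotic spindle, stood at 92.7, 87.9, 77.8 and 284 CPM in PBS mice 5, 6 and 9 and ALY688 mouse 7, against 14.2 to 59.1 in the other 15 libraries without LPS, without overlap. It rose with the index under LPS (slope 1.06, edgeR adjusted p = 0.00274), the only 1 of 27 genes tested from the cell cycle list that did. Of all genes tested, 11.3% rose. Ube2c, also used in mitosis but placed on the reticulocyte list, rose too (slope 1.44, edgeR adjusted p = 3.4e-05). Ccna2 (cyclin A2) and Birc5 (survivin) had slopes of 0.17 and -0.35 (edgeR adjusted p = 0.565 and 0.183). Among proteasome genes, Psmd4, a ubiquitin receptor of the regulatory cap, was 3.09-fold higher in the 4 libraries and Psma4, a subunit of the core, 1.61-fold lower, both without overlap. The median relative log2 difference of the 33 proteasome genes was 0.11, while their share of counts outside the globins was 1.45-fold lower in the 4, without overlap.

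Nuclear-encoded subunits of the respiratory chain also divided. Of 40, 17 lay above all 15, among them Ndufa1 (4.95-fold) and Cox6c (3.96-fold), and 0 below, beside 16.5% and 6.44% of all genes. With library totals 0 lay above and 21 below, beside 14 and 6534 of all 9586 genes. Under LPS 10 of 40 rose with the index and 1 fell, beside 11.3% and 3.83% of all genes. Among dendritic cell genes, Xcr1, a chemokine receptor of cross-presenting cells, stood at 7.66, 9.86, 10.5 and 4.84 CPM in PBS mice 5, 6 and 9 and ALY688 mouse 7 against 0.108 to 4.46. It was the only 1 of 9 kept genes of that list above all 15, and 2 lay below. The median relative log2 difference of the list was -0.12 on the TMM scale. As a share of counts outside the globins, the list was 3.16-fold lower in the 4.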
